A study of Mus musculus with 48 samples.

Results

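The comparison set 8 control libraries of mouse pre-pro-B cells against 2 control libraries of mouse pro-B cells, which together are 10 of the 48 samples of a series on the transcription factor Ikaros, encoded by Ikzf1, in early B-cell development. The pre-pro-B cells were Ebf1(-/-) and carried either an empty vector (4 libraries) or Ren713 (4 libraries), the control constructs of an Ikaros knock-down experiment. The pro-B cells were Ikzf1(fl/+) Cd79a(Cre/+), with no vector named: 1 Ikzf1 allele is floxed and the other wild type, and Cre recombinase is expressed from 1 copy of the B-lineage gene Cd79a, so the floxed allele can be recombined in B-lineage cells. Whether it was recombined is not measured here. All 10 libraries were labelled C57BL/6, and the labels of these libraries give no age, tissue, sort or culture. Stage, Ebf1 genotype, the Ikzf1 and Cd79a alleles, vector and library batch changed together, so their parts in any difference cannot be told apart. Any difference in culture, which the labels do not give, cannot be told apart from these either. The same holds for the sex of the cells, which the labels do not give: the Y-linked genes Ddx3y, Eif2s3y and Kdm5d were listed at 0 in all 8 pre-pro-B libraries, against 4.7 and 5.24, 9.38 and 10.1 and 3.04 and 3.41 RPKM in pro-B libraries. Xist, the RNA of the inactive X chromosome, ran from 1.17 to 34.6 RPKM in pre-pro-B libraries, against 8.07 and 8.46 RPKM in pro-B libraries. Libraries were chosen by their labels alone. Of 21025 gene models, 10996 had at least 1 RPKM (reads scaled to gene-model length in kilobases and to library size in M, or mega, mapped reads) in at least 2 of the 10 libraries and were tested.

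Pre-pro-B cells stand at the entry to the B lineage and still express genes shared by uncommitted lymphoid progenitors. The factor EBF1, acting with E2A and FOXO1, switches on the B-lineage programme and Pax5, and Pax5 then holds cells to the B lineage. Progenitors that lack EBF1 stop at the pre-pro-B stage and can still form T, natural killer and myeloid cells. Pro-B cells rearrange the heavy-chain locus and make the surrogate light chain of the pre-B-cell receptor.

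Library numbers placed each empty-vector library beside a Ren713 library in 4 runs, and both libraries of a run were averaged before testing, because the series text describes 4 replicates with 2 controls each. Means are given with the SD over the 4 runs in pre-pro-B cells (n = 4) and over the 2 pro-B libraries (n = 2). Log2 differences are pre-pro-B minus pro-B on log2(RPKM + 1), which understates the change of low genes, with their SE. A gene was called at a limma adjusted p under 0.05, and higher and lower are used for called genes. A gene that passed the filter through 1 group alone, with every library of the other group under 1 RPKM, had to differ in that direction, so counts and medians over tested genes are descriptions. Of all genes tested, 602 passed through pre-pro-B libraries alone and 598 through pro-B libraries alone. No label ties a replicate to its own animal or culture, so the p-values cover the spread among these libraries alone, and that spread may be technical. In RNA from bulk cells, fewer cells of a type and less RNA per cell cannot be told apart.

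Of the 10996 genes, 5435 were called, which is 49.4%. Pre-pro-B cells were higher for 2645 genes (24.1%) and lower for 2790 genes (25.4%). A stricter limma test for a change beyond 2-fold (treat) called 1010 genes (9.19%), of which 432 were higher (3.93%) and 578 lower (5.26%). The 8 pre-pro-B and 2 pro-B libraries did not overlap for 59.7% of the genes tested. The depth implied by the steps in the RPKM values was 17.9 to 35.1 M reads in the pre-pro-B libraries and 10.3 and 11.7 M reads in the pro-B libraries. Run 4 of the pre-pro-B libraries stood apart: 429 genes lay more than 2-fold from the mean of the other runs, against 17, 50 and 118 genes for runs 1, 2 and 3. Without run 4 the count of called genes was 7387. It was 2842 without pro-B replicate 1 and 3011 without pro-B replicate 2. Where the loss of a pro-B replicate ends the call of a gene named below, its limma adjusted p is given.

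**Figure D1:**
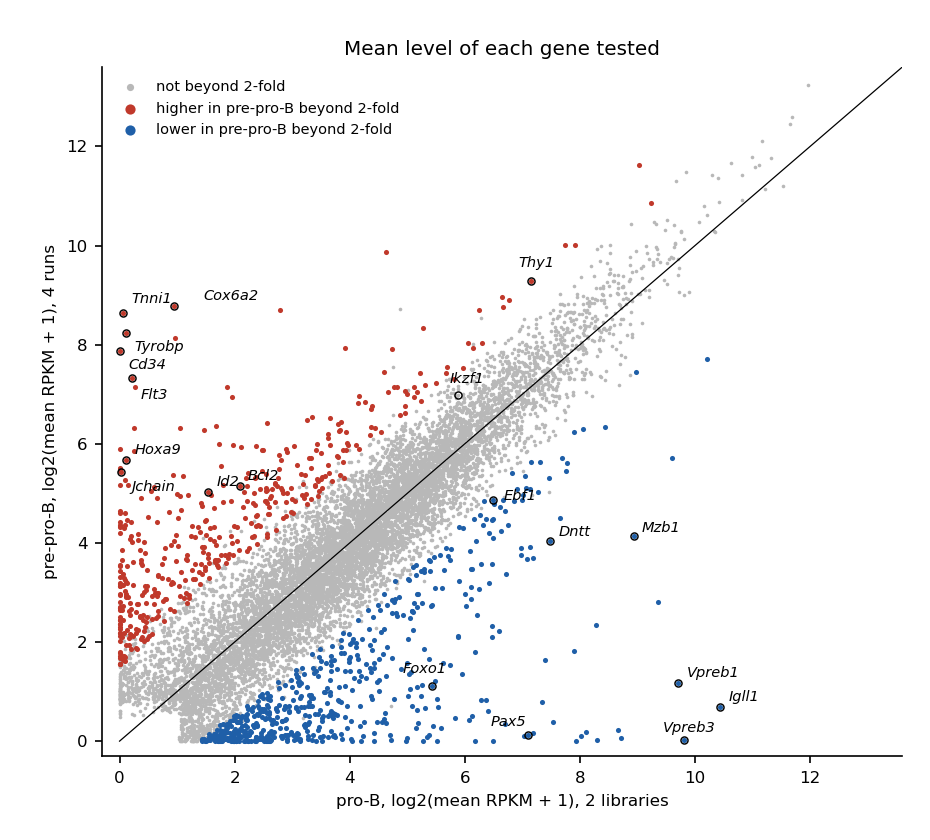
Level of each of the 10996 genes tested, as log2(mean RPKM + 1), with the line of equal levels. Pre-pro-B cells (4 runs) are on the vertical axis and pro-B cells (2 libraries) on the horizontal axis. Coloured points are the 432 genes higher and 578 lower in pre-pro-B cells beyond 2-fold; Vpreb3 and Igll1 lie at the lower right and Tnni1 and Tyrobp at the upper left.

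The pro-B markers separated the groups. Summed over the 6 pro-B markers Cd79a, Cd79b, Vpreb1, Igll1, Ebf1 and Pax5, the pre-pro-B libraries held 25.8 to 37.8 RPKM, against 3014 and 3015 RPKM in the pro-B libraries. The 6 markers of uncommitted lymphoid progenitors (Il7r, Flt3, Kit, Ly6d, Dntt and Sox4) summed to 439 to 662 RPKM in pre-pro-B libraries and 348 and 384 RPKM in pro-B libraries. That sum did not follow the stage, since it was 1632 and 1857 RPKM in c-Kit-high and 466 and 837 RPKM in Rag2-null pro-B controls, further groups of the series. Of its 6 genes, Flt3, Ly6d and Sox4 were higher in pre-pro-B than in pro-B cells, Dntt was lower, and Il7r and Kit were not called. The neutrophil genes S100a8, S100a9, Ngp and Retnlg were listed at 0 in all 10 libraries. They are among 8 granulocyte markers, which also include Mpo. These summed to 21.7 to 90.3 RPKM in pre-pro-B libraries and at most 0.283 RPKM in pro-B libraries.

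The sequences just upstream of 7 B-lineage genes are shown because these genes, which EBF1 and Pax5 are known to activate, carried wide gaps or, in Cd22, a match to the EBF1 motif. Each is the 250 bases before the gene start from RefSeq (GRCm38.p6), 5′ to 3′ on the gene's strand. Capitals mark CAGGTG on either strand, an E-box that E proteins such as E2A can bind, and in Cd22 they also mark the palindromic EBF1 core motif, the second run of capitals.
Vpreb1 (chr16:16869256-16869505, minus strand): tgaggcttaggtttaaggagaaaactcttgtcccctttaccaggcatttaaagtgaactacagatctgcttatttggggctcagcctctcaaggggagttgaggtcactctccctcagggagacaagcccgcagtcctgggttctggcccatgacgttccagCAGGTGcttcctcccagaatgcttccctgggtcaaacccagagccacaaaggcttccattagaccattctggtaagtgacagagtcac
Vpreb2 (chr16:17980315-17980564, plus strand): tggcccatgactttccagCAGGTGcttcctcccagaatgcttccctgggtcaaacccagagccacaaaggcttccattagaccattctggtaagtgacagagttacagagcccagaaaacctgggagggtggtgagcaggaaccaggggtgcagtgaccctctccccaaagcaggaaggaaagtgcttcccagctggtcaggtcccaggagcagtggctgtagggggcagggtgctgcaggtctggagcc
Igll1 (chr16:16863986-16864235, minus strand): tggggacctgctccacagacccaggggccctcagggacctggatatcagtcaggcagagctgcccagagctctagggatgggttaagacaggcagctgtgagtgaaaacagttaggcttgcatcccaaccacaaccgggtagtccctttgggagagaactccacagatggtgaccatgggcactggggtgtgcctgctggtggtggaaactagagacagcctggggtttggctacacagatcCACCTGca
Cd79a (chr7:24897247-24897496, plus strand): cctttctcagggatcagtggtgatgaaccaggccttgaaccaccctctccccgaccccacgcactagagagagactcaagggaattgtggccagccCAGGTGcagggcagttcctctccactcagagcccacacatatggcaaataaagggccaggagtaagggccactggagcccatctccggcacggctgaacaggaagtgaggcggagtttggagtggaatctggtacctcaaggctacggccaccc
Blnk (chr19:40994222-40994471, minus strand): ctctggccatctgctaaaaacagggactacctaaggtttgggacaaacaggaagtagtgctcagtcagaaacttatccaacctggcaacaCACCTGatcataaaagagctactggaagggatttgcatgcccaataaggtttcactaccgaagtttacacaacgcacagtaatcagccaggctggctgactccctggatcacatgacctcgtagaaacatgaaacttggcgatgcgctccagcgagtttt
Vpreb3 (chr10:75948050-75948299, plus strand): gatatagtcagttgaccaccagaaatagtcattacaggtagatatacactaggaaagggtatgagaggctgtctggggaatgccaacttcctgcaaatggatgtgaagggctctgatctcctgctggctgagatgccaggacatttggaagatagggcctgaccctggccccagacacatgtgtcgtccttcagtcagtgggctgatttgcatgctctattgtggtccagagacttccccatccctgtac
Cd22 (chr7:30879029-30879278, minus strand): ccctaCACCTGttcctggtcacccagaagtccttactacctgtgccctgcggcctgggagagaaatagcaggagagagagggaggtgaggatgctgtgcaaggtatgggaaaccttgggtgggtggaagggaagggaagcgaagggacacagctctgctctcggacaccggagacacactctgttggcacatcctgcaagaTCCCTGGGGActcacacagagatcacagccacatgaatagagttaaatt
The E-box began 88 bases before the gene start in Vpreb1, 232 in Vpreb2, 8 in Igll1, 154 in Cd79a, 160 in Blnk and 245 in Cd22, whose EBF1 motif began at 49, and these bases of Vpreb3 held none. Vpreb1 and Vpreb2, a duplicated pair, shared 104 of 106 bases aligned without gaps (98.1%). In windows of 250 bases before to 50 after the gene start, CAGGTG stood in 9 of the 13 EBF1 and Pax5 target genes with a promoter entry that were lower in pre-pro-B cells (69.2%), beside 20.2% of the 8786 tested genes with an entry. It stood in 27.7% of the genes higher beyond 2-fold and in 23.2% of those lower beyond 2-fold. The other motifs, searched on both strands, were the EBF1 core motif in 1 of the 13 against 1.2% of all, CAGCTG in 5 against 17%, GAGGAAGT in 0 against 3.76% and TGGGAA in 3 against 26.2%. Overlap between matches of different motifs was not removed, and a match is a description of sequence and not of binding.

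Genes that EBF1 and Pax5 are known to activate were nearly silent in pre-pro-B cells. Of 22 such genes 19 were tested, of which 17 were lower and 1 was higher, beside 25.4% and 24.1% of all genes. Their median log2 difference was -5.95, against -0.05 over all genes tested. Through the pro-B libraries alone 12 of the tested genes had passed the filter. All 17 of these lower genes were lower beyond 2-fold as well. Cr2, Rasgrp3 and Ceacam1 did not pass the filter. The exceptions to the fall were Syk, the kinase that carries the receptor signal onward (62.4 ± 12.6 against 85.8 ± 2.12 RPKM, not called), and Cd72, an inhibitory coreceptor (21.9 ± 2.75 against 13.8 ± 2.1 RPKM, higher). The call of Cd72 was lost without pro-B replicate 1 (limma adjusted p = 0.138), and against the c-Kit-high controls it was lower (log2 difference -1.96, limma adjusted p = 5.44e-05).

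The surrogate light chain, which pairs with a new heavy chain, is made of the VpreB and λ5 proteins. Vpreb3, which encodes a VpreB-related protein, was listed at 0 in 7 of the 8 pre-pro-B libraries and at 0.0928 RPKM in the other, against 883 and 900.2 RPKM in pro-B libraries. Igll1, which encodes λ5, had 0.371, 0.616 and 0.896 RPKM as the lowest, median and highest pre-pro-B value, against 1361 and 1405 RPKM in pro-B libraries. Vpreb1 had 0.629, 1.25 and 2.04 RPKM in the same terms, against 836 and 842 RPKM. The groups were far apart for each of them. The log2 differences were -9.79 ± 0.13 for Vpreb3 (limma adjusted p = 1.87e-08), -9.76 ± 0.12 for Igll1 (1.87e-08) and -8.58 ± 0.20 for Vpreb1 (1.73e-07). Vpreb2 averaged 0.131 ± 0.0628 against 274 ± 24.9 RPKM, but the near-identical Vpreb1 and Vpreb2 can share reads, so their separate levels are uncertain.

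The signalling chains and coreceptors of the B-cell receptor showed the same split. Cd79a, the signalling chain Igα, averaged 0.0716 ± 0.0687 RPKM in pre-pro-B cells and 258 ± 22.5 RPKM in pro-B cells, where Cre is expressed from 1 of its alleles. Its partner Cd79b (Igβ) kept a low level of 3.21, 3.9 and 5.13 RPKM as lowest, median and highest pre-pro-B value, against 306 and 313 RPKM. No pre-pro-B library reached a pro-B library for either gene. Blnk, the adaptor below the receptor, averaged 0.127 ± 0.0504 against 144 ± 2.66 RPKM, and Cd22, an inhibitory coreceptor, 0.0749 ± 0.0325 against 12 ± 0.233 RPKM. Bst1, a surface enzyme of early B cells, fell by 4.87 on the log2 scale, the kinase gene Blk by 4.25, the adaptor gene Nedd9 by 4.43 and the BAFF receptor gene Tnfrsf13c by 2.95.

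Ebf1 and Ikzf1 are among the genes altered in these mice. Ebf1 was not absent from the Ebf1(-/-) libraries, with 19.7, 29.3 and 32.1 RPKM as the lowest, median and highest value, against 86.8 and 91.3 RPKM in pro-B libraries. The groups did not overlap, and the log2 difference was -1.65 ± 0.17 (limma adjusted p = 0.000185). A value summed over the whole gene model does not resolve the deleted part. Stage and Ebf1 genotype also changed together, so this level does not check the label. Ikzf1 had 106, 124 and 145 RPKM as the lowest, median and highest pre-pro-B value, against 56.4 and 59.2 RPKM in pro-B libraries (log2 difference 1.09 ± 0.15, limma adjusted p = 0.000932). Every pre-pro-B library was above both pro-B libraries. Against the c-Kit-high pro-B controls, which have the same genotype as the pro-B controls, Ikzf1 was not called, with values given below. The part of the floxed allele and Cre in the gap was not tested.

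Most transcription factors of the B lineage were lower. Of 23 such genes, 16 were lower and 4 higher in pre-pro-B cells, beside 25.4% and 24.1% of all genes. Their median was -1.82, and 5 had passed the filter through the pro-B libraries alone. Pax5 had 0.0242, 0.0792 and 0.275 RPKM as the lowest, median and highest pre-pro-B value, against 133 and 139 RPKM in pro-B libraries. Pou2af1, the coactivator of octamer factors, was at 0.0436 RPKM or less in every pre-pro-B library, against 314 and 315 RPKM. These groups lay far apart. Lef1, a nuclear effector of Wnt signalling in pro-B cells, averaged 0.31 ± 0.233 against 185 ± 3.42 RPKM, and Foxo1, which drives Rag and Il7r transcription, 1.17 ± 0.17 against 42.2 ± 1.15 RPKM (log2 difference -4.32 ± 0.15, limma adjusted p = 9.32e-07).

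Spib, a relative of PU.1, averaged 3.97 ± 1.6 RPKM in pre-pro-B cells and 88.3 ± 3.8 RPKM in pro-B cells. Irf4, which acts later in light-chain rearrangement and plasma cells, averaged 0.298 ± 0.0829 against 21.1 ± 3.17 RPKM. The gaps of Id3, Irf8, Erg, Ets1, Bcl11a and Bach2 were smaller, with log2 differences of -3.37, -2.29, -2.08, -2.04, -1.82 and -1.70. Within the Ikaros family, Ikzf3 (Aiolos) averaged 0.034 ± 0.0321 against 15.3 ± 0.00448 RPKM, while Ikzf4 (2.89 ± 0.624 against 2.08 ± 0.143 RPKM) and Ikzf5 (6.04 ± 0.957 against 5.89 ± 0.539 RPKM) were not called and Ikzf2 did not pass the filter.

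The E-protein genes were lower as well. Tcf3, which encodes E2A, averaged 158 ± 6.1 RPKM in pre-pro-B cells and 269 ± 7.14 RPKM in pro-B cells (log2 difference -0.76 ± 0.11, limma adjusted p = 0.00122), and Tcf12 16.5 ± 6.59 against 32.3 ± 0.438 RPKM. Myb (155 ± 26 against 156 ± 16.2 RPKM), Runx1 (26 ± 4.41 against 32.3 ± 1.31 RPKM) and Zbtb7a (40.8 ± 4.68 against 39.5 ± 2.76 RPKM) were not called. The genes higher in pre-pro-B cells were Ikzf1, Id2, Spi1 and Sox4. Id2, an inhibitor of E proteins, had 23.5, 33.5 and 37.7 RPKM as the lowest, median and highest pre-pro-B value, against 0.882 and 2.91 RPKM in pro-B libraries (log2 difference 3.57 ± 0.30, limma adjusted p = 6.73e-05). Spi1, which encodes PU.1, averaged 137 ± 13.9 against 54.8 ± 7.5 RPKM, and Sox4, a factor of early B-cell survival, 194 ± 21.4 against 129 ± 4.34 RPKM. Without pro-B replicate 1 or 2 the calls of Sox4 (limma adjusted p = 0.0818 and 0.105) and Tcf12 (0.149 and 0.136) were lost, and that of Tcf12 was lost without run 1 or 2 as well.

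**Figure D2:**
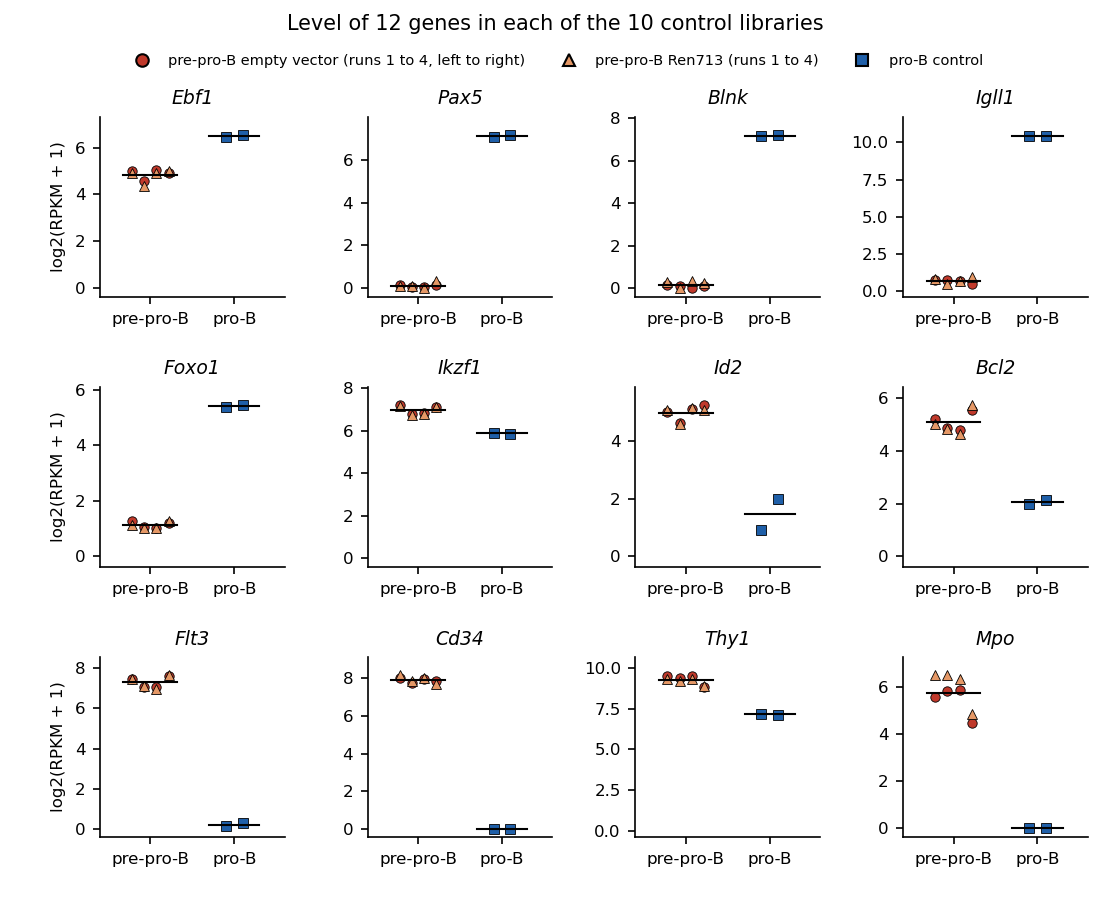
Level of 12 genes, as log2(RPKM + 1), in each of the 8 pre-pro-B libraries (empty vector and Ren713) and the 2 pro-B libraries. The groups do not overlap for any of the 12 genes, and the gap is smallest for Ikzf1.

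Among signalling genes of the pre-B-cell receptor, 11 of 21 were lower and 2 higher, beside 25.4% and 24.1% of all genes. Their median was -0.65, and 3 had passed the filter through the pro-B libraries alone. The 4 lower beyond 2-fold were Blnk, Prkcb, Blk and Pik3ap1. Prkcb, which encodes protein kinase C beta, averaged 0.606 ± 0.157 RPKM in pre-pro-B cells and 45.2 ± 0.253 RPKM in pro-B cells, and Pik3ap1, the adaptor BCAP, 26.4 ± 4.79 against 89.8 ± 6.68 RPKM. Btk, the kinase lost in X-linked agammaglobulinaemia, averaged 14.4 ± 4.95 against 44.6 ± 3.52 RPKM. The genes that were higher were Grb2 (96 ± 6.56 against 73.9 ± 0.358 RPKM) and Ptpn6, the phosphatase SHP-1 (135 ± 13.7 against 84.6 ± 1.4 RPKM). Grb2 lost its call without pro-B replicate 1 or 2 (limma adjusted p = 0.155 and 0.158) and without run 1 or 3, and Ptpn6 without pro-B replicate 1 (0.0564). Syk, Lyn, Vav1, Inpp5d, Shc1, Cbl, Cblb and Pik3r1 were not called.

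Of 16 genes of V(D)J recombination and end joining, 8 were lower and 3 higher, beside 25.4% and 24.1% of all genes. Their median was -0.79. Dntt, the terminal transferase that adds bases at heavy-chain joints, had 9.65, 12.8 and 24.5 RPKM as the lowest, median and highest pre-pro-B value, against 165 and 189.7 RPKM in pro-B libraries (log2 difference -3.50 ± 0.24, limma adjusted p = 2.39e-05). Rag1, a subunit of the recombinase, had 4.67, 5.56 and 7.03 RPKM in the same terms, against 14.8 and 20.2 RPKM (log2 difference -1.44 ± 0.18, limma adjusted p = 0.000529). Neither gene overlapped between the groups. Rag2, the other subunit, had 4.96, 5.89 and 7.71 RPKM against 4.4 and 6.14 RPKM, with overlapping groups, and was not called (limma adjusted p = 0.448). Lig4, the end-joining ligase, averaged 0.828 ± 0.279 against 6.11 ± 1.54 RPKM, Atm, the damage kinase, 2.13 ± 0.939 against 6.66 ± 0.789 RPKM and Hmgb2, a DNA-bending cofactor of cleavage, 39.96 ± 3.9 against 131 ± 14.1 RPKM. The higher genes were Poll, Xrcc6 and Nhej1, by 0.95, 0.59 and 0.58 on the log2 scale. Without pro-B replicate 1 or 2 the number called in this list was 7 and 9, Xrcc6 and Nhej1 lost their calls in both cases (limma adjusted p of 0.0717 to 0.182), Atm did without replicate 1 (0.0578), and Nhej1 did without run 1, 2 or 3.

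Other pro-B controls of the series give these levels a frame. The c-Kit-high pro-B controls (2 libraries) had the same genotype as the pro-B controls and were labelled c-Kit high, and the Rag2-null pro-B controls (2 libraries) were Ikzf1(fl/+) Cd79a(Cre/+) Rag2(-/-). Comparisons with them share the pre-pro-B libraries with the one above. Rag1 averaged 5.78 RPKM in pre-pro-B cells, 322 in c-Kit-high pro-B cells and 17.5 in pro-B cells. For Rag2 the means were 6.07, 54.7 and 5.27 RPKM in that order of stages, for Dntt 15.5, 1261 and 177 RPKM, and for Il7r, the IL-7 receptor, 10.4, 84.2 and 8.21 RPKM. Both c-Kit-high libraries were above every pre-pro-B, pro-B and Rag2-null library for these 4 genes.

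Against the c-Kit-high controls 63.6% of 11122 genes were called, 29.7% higher and 33.8% lower in pre-pro-B cells. There the log2 difference was -5.57 for Rag1, -2.94 for Rag2 and -2.91 for Il7r, with limma adjusted p of 2.09e-07, 2.01e-05 and 2.44e-05. Of the B-lineage transcription factors 20 were lower and 2 higher there, and Ebf1 was at 264 and 281 RPKM in the c-Kit-high libraries. Ikzf1 was at 101 and 124 RPKM in them and was not called (log2 difference 0.15, limma adjusted p = 0.487). Of the called genes named in the text, Cish, Col1a1, Col1a2, Cxcl12, Cyp51, Fn1, Lta, Myc, Slc16a3, Sox4, Sparc, Xbp1 and Xrcc6 had the opposite sign there, as had Cd72, Lmo2 and Irf7. One of these libraries had an implied depth of only 2.3 M reads. The 8 granulocyte markers, which include Mpo, summed to 101 and 619 RPKM in the c-Kit-high libraries. The sums were 21.7 to 90.3 RPKM in pre-pro-B libraries and at most 0.283 RPKM in pro-B libraries. The part of granulocyte transcripts in these results was not tested.

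**Figure D3:**
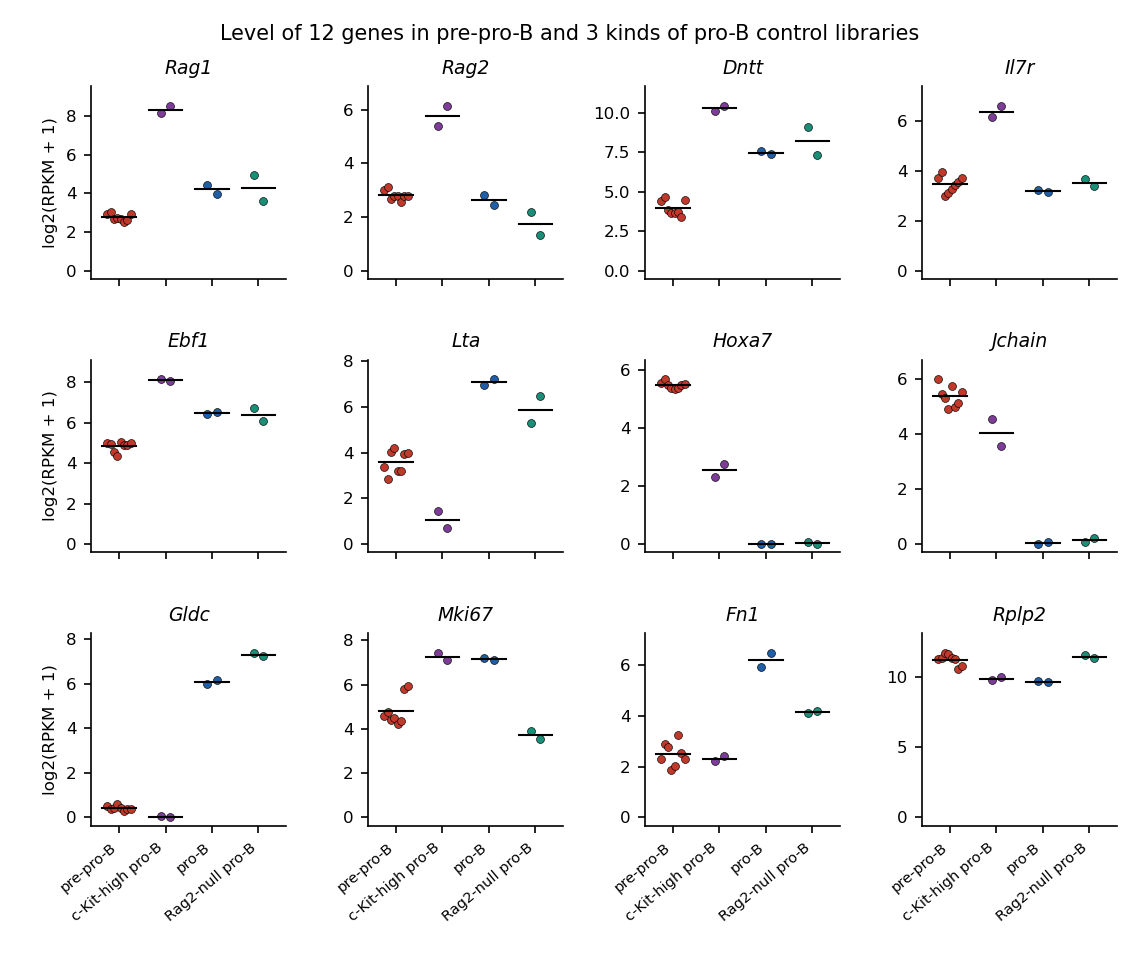
Level of 12 genes, as log2(RPKM + 1), in each library of the pre-pro-B (8), c-Kit-high pro-B (2), pro-B (2) and Rag2-null pro-B (2) controls. Rag1, Rag2, Dntt and Il7r are highest in the c-Kit-high libraries, and Fn1 is highest in the pro-B libraries.

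Genes of stem cells and multipotent progenitors were mostly higher in pre-pro-B cells. Of 28 genes 21 were tested, 13 were higher and 3 lower, beside 24.1% and 25.4% of all genes. Their median was 1.66, and 7 of the tested genes had passed through the pre-pro-B libraries alone. Genes of long-lived stem cells such as Mecom, Hlf, Slamf1 and Procr did not pass the filter. Cd34, the sialomucin of blood progenitors, had 200.3, 234 and 276 RPKM as the lowest, median and highest pre-pro-B value and was listed at 0 in both pro-B libraries. Flt3, the receptor that Pax5 represses, had 125, 155 and 199 RPKM, against 0.094 and 0.239 RPKM (log2 difference 7.08 ± 0.19, limma adjusted p = 3.85e-07). Cd27, a TNF receptor family member, had 111, 141 and 158 RPKM, against 0.185 and 0.219 RPKM. For all of these, every pre-pro-B library was far above both pro-B libraries. Kit, the stem cell factor receptor, had 13.8, 27.9 and 108 RPKM against 18.7 and 20.9 RPKM, with overlapping groups, and was not called (limma adjusted p = 0.387).

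Homeobox genes of the Hoxa cluster, which maintain progenitors, were among the largest of these rises. Hoxa9 had 40.5, 46.6 and 67.6 RPKM as the lowest, median and highest pre-pro-B value, against 0.043 and 0.114 RPKM in pro-B libraries (log2 difference 5.54 ± 0.20, limma adjusted p = 1.26e-06). Hoxa7 ran from 39.7 to 50.3 RPKM and was listed at 0 in both pro-B libraries, while the c-Kit-high libraries had 4.0 and 5.76 RPKM. Hoxa10 averaged 16.7 ± 1.76 against 0.147 ± 0.0127 RPKM, Hoxa5 12.9 ± 8.7 against 0.366 ± 0.00289 RPKM and their cofactor Meis1 24.2 ± 5.68 against 1.09 ± 0.221 RPKM. Hoxb4, of another cluster, was lower (1.77 ± 0.18 against 3.27 ± 0.0461 RPKM). That call was lost without pro-B replicate 1 or 2 (limma adjusted p = 0.0596 and 0.0528). The Myc relative Mycn was higher by 2.86 on the log2 scale, the chromatin organiser Satb1 by 3.36 and the bridging factor Lmo2 by 1.66, while Lyl1, Fli1 and Etv6 were not called. Against the c-Kit-high controls Lmo2 had a log2 difference of -0.89 (limma adjusted p = 0.00421).

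Of 23 surface antigens used to stage early B cells 8 were higher and 7 lower, beside 24.1% and 25.4% of all genes. Through the pre-pro-B libraries alone 3 had passed the filter, and 3 through the pro-B libraries alone. Enpep (BP-1) was at 0.0264 RPKM or less in every pre-pro-B library, against 83.9 and 93.4 RPKM in pro-B libraries. Cd24a (heat-stable antigen) averaged 80.3 ± 8.17 against 344 ± 15.9 RPKM. Ly6d, which marks lymphoid progenitors with B-cell potential, had 39.9, 134 and 208 RPKM as the lowest, median and highest pre-pro-B value, against 30.1 and 32.5 RPKM (log2 difference 1.92 ± 0.43, limma adjusted p = 0.00888), with no overlap. Its call was lost without pro-B replicate 1 or 2 (limma adjusted p = 0.0677 and 0.0755) and with the 8 libraries in a fit with the run as replicate block (0.0522). Spn (CD43; 98.5 ± 8.96 against 121 ± 10.2 RPKM), Cd93 (AA4.1; 36.8 ± 6.13 against 44.8 ± 4.17 RPKM) and Il7r (10.4 ± 2.62 against 8.21 ± 0.40 RPKM) were not called.

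IL-7, the growth factor of early mouse B cells, acts through Il7r, Il2rg, JAK1 and JAK3 on STAT5. Of 24 genes of this pathway and its targets, 8 were higher and 10 lower in pre-pro-B cells, beside 24.1% and 25.4% of all genes. Bcl2, the survival gene, had 24.3, 30.3 and 52.7 RPKM as the lowest, median and highest pre-pro-B value, against 3.03 and 3.46 RPKM in pro-B libraries (log2 difference 3.02 ± 0.25, limma adjusted p = 6.93e-05). Every pre-pro-B library was above both pro-B libraries. Its relatives Bcl2l1 (34.6 ± 1.43 against 51.7 ± 1.11 RPKM) and Mcl1 (43.3 ± 3.55 against 63.3 ± 3.47 RPKM) were lower. Among the feedback inhibitors, Socs1 averaged 52.7 ± 11.6 against 12.7 ± 0.178 RPKM, while Socs3 and Cish were lower by log2 differences of -1.87 and -0.97. The cyclin genes Ccnd3 and Ccnd2 averaged 174 ± 13.7 and 55.7 ± 14.4 RPKM in pre-pro-B cells, against 504 ± 1.79 and 133 ± 5.13 RPKM in pro-B cells, and Myc 167 ± 32.9 against 267 ± 9.72 RPKM. Myc and Cish lost their calls without pro-B replicate 1 or 2 (limma adjusted p of 0.052 to 0.13), Mcl1 without replicate 1 (0.0877) and Myc without run 1.

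The lymphotoxin genes, which encode TNF family ligands, were lower. Lta had 6.16, 11.9 and 17.6 RPKM as the lowest, median and highest pre-pro-B value, against 122 and 146 RPKM in pro-B libraries (log2 difference -3.47 ± 0.31, limma adjusted p = 9.03e-05). The c-Kit-high libraries, at 0.624 and 1.7 RPKM, lay below the pre-pro-B libraries, and against them Lta was higher in pre-pro-B cells by 2.53 (limma adjusted p = 0.000443). Ltb averaged 5.89 ± 1.18 against 33.6 ± 0.17 RPKM.

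T-lineage genes were mostly higher in pre-pro-B cells, while the genes that define T cells were at or near 0. Of 25 T-lineage and Notch genes 14 were tested, and 11 were higher and 2 lower, beside 24.1% and 25.4% of all genes. Through the pre-pro-B libraries alone 4 of the 14 had passed the filter. Thy1, a surface glycoprotein of T cells and progenitors, had 461, 642 and 747 RPKM as the lowest, median and highest pre-pro-B value, against 137 and 146 RPKM in pro-B libraries. The receptor kinase genes Lck and Zap70 averaged 132 ± 26.2 and 19.4 ± 5.37 RPKM, against 34.8 ± 0.59 and 1.4 ± 0.357 RPKM, and the regulator Gata3 6.51 ± 1.39 against 0.109 ± 0.111 RPKM. Cd7 ran from 3.41 to 18.3 RPKM and was listed at 0 in both pro-B libraries. Cd3e, Cd3d, Cd3g, Cd4, Cd8a, Ptcra and Bcl11b did not pass the filter.

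Notch1, the receptor that starts T-cell commitment, and Hes1, one of its best-known targets, went opposite ways. Notch1 averaged 61.5 ± 10.3 against 14.6 ± 0.603 RPKM (log2 difference 1.98 ± 0.17, limma adjusted p = 7.83e-05). Hes1 had 0.231, 0.612 and 0.981 RPKM as the lowest, median and highest pre-pro-B value, against 38.3 and 38.5 RPKM in pro-B libraries (log2 difference -4.64 ± 0.15, limma adjusted p = 6.55e-07). The groups overlapped for neither gene. Hes1 was at 88.6 and 128 RPKM in the c-Kit-high and 44.8 and 62.5 RPKM in the Rag2-null controls. Of other Notch targets, Nrarp was not called and Dtx1 and Notch3 did not pass the filter.

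Of the natural killer and innate lymphoid list 9 genes were tested and higher in pre-pro-B cells, beside 24.1% of all genes. Through the pre-pro-B libraries alone 6 of these had passed the filter, and the other 9 matched genes did not pass it. Nkg7, a cytotoxic granule gene, had 40.3, 89.8 and 112 RPKM as the lowest, median and highest pre-pro-B value, against 2.01 and 2.39 RPKM in pro-B libraries. Nfil3, a factor of innate lymphoid development, averaged 12.5 ± 2.36 against 1.26 ± 0.50 RPKM, the IL-2 receptor gene Il2rb 6.5 ± 1.08 against 0.082 ± 0.0649 RPKM and the IL-18 receptor gene Il18r1 13.5 ± 5.77 against 0.0306 ± 0.0433 RPKM. The natural killer markers Ncr1, Klrb1c and Eomes summed to 0.306 to 0.652 RPKM in pre-pro-B libraries and 0.0328 and 0.0742 RPKM in pro-B libraries.

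Of 11 tested dendritic cell genes 9 were higher and 2 lower, beside 24.1% and 25.4% of all genes. Through the pre-pro-B libraries alone 5 of the 11 had passed. Cox6a2, a cytochrome c oxidase subunit also made in plasmacytoid dendritic cells, had 313, 419 and 604 RPKM as the lowest, median and highest pre-pro-B value, against 0.523 and 1.33 RPKM in pro-B libraries (log2 difference 7.83 ± 0.25, limma adjusted p = 6.55e-07). Ccr9, a homing receptor of gut and thymus, ran from 9.72 to 32 RPKM and was listed at 0 in both pro-B libraries. The regulator Runx2 averaged 11 ± 1.4 against 0.672 ± 0.245 RPKM and the membrane protein gene Bst2 261 ± 66.5 against 65.2 ± 9.25 RPKM. The genes that were lower were the factors Irf8 (31.6 ± 9.28 against 153 ± 1.66 RPKM) and Tcf4 (8.62 ± 2.04 against 19.2 ± 1.1 RPKM), and Siglech, Xcr1 and Clec9a did not pass the filter.

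Of 20 tested myeloid regulators and receptors 11 were higher and 3 lower, beside 24.1% and 25.4% of all genes. Through the pre-pro-B libraries alone 6 of the 20 had passed. Tyrobp (DAP12), an adaptor of activating receptors, had 208, 276 and 407 RPKM as the lowest, median and highest pre-pro-B value, against 0 and 0.171 RPKM in pro-B libraries (log2 difference 8.08 ± 0.26, limma adjusted p = 6.96e-07). Fcer1g, the Fc receptor gamma chain with the same role, averaged 279 ± 45.7 against 0.939 ± 0.702 RPKM. No pro-B library came near a pre-pro-B library for either. The granulocyte and macrophage factors Cebpa and Cebpb averaged 25 ± 8.76 and 33.5 ± 5.09 RPKM, against 2.13 ± 0.75 and 6.03 ± 0.564 RPKM, and Gfi1, a repressor of monocyte genes, was lower (6.11 ± 0.796 against 12.6 ± 1.29 RPKM). The receptor genes Csf1r and Csf3r did not pass the filter.

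Of 19 matched granule genes 4 were tested, of which 3 were higher and 1 lower, beside 24.1% and 25.4% of all genes. Those 3 higher genes had passed through the pre-pro-B libraries alone. Mpo, the peroxidase of the first granules, had 21.1, 56.9 and 89.98 RPKM as the lowest, median and highest pre-pro-B value and was listed at 0 in both pro-B libraries. Prtn3 and Ctsg, proteases of the same granules, averaged 15.8 ± 7.23 and 7.94 ± 3.38 RPKM, against 0.139 ± 0.0546 and 0.0485 ± 0.0686 RPKM. Lyz2, a lysozyme gene of myeloid cells, averaged 2.88 ± 1.04 against 13.1 ± 0.521 RPKM and was lower. Of the mast cell, basophil and eosinophil list 1 of 18 genes passed the filter. Of 7 tested erythroid and megakaryocyte genes 5 were higher and 2 lower, beside 24.1% and 25.4% of all genes. Through the pre-pro-B libraries alone 2 of the 7 had passed. The factor gene Nfe2 averaged 57.4 ± 19.9 against 4.61 ± 1.18 RPKM. The carbonic anhydrase gene Car2 averaged 0.778 ± 0.663 against 81.2 ± 13.3 RPKM. That list had 4 called genes without pro-B replicate 1.

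Genes of pre-B and later B cells were mostly lower, 13 of 18 tested, with 5 higher, beside 25.4% and 24.1% of all genes. Through the pro-B libraries alone 5 of the 18 had passed the filter. H2-Ab1, a chain of class II histocompatibility molecules, had 0.311, 0.822 and 1.54 RPKM as the lowest, median and highest pre-pro-B value, against 29.4 and 33.5 RPKM in pro-B libraries. Ms4a1 (CD20) was listed at 0 in all 8 pre-pro-B libraries, against 1.23 and 1.59 RPKM in pro-B libraries. Cd74, the class II chaperone, averaged 10.1 ± 2.15 against 38.1 ± 6.25 RPKM. The Rag2-null libraries had 6.4 and 10.2 RPKM of Cd74, and it was not called against them (limma adjusted p = 0.484). Cd2 and Il2ra, which rise on pre-B cells, were higher in pre-pro-B cells than in pro-B cells, at 6.26 ± 1.13 and 3.65 ± 1.06 RPKM against 1.49 ± 0.185 and 0.496 ± 0.0157 RPKM.

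Of 8 tested plasma cell genes 4 were lower and 2 higher, beside 25.4% and 24.1% of all genes. Mzb1, a chaperone of the endoplasmic reticulum, averaged 16.6 ± 6.87 RPKM in pre-pro-B cells and 488 ± 32.6 RPKM in pro-B cells, and Xbp1, a factor of secretion, 70.2 ± 17.7 against 141 ± 5.64 RPKM. The call of Xbp1 was lost without pro-B replicate 1 or 2 (limma adjusted p = 0.0935 and 0.0738). Jchain, which joins secreted antibodies, had 29.3, 41 and 62.1 RPKM as the lowest, median and highest pre-pro-B value, against 0 and 0.0464 RPKM in pro-B libraries (log2 difference 5.35 ± 0.18, limma adjusted p = 9.61e-07). It was at 10.9 and 22.2 RPKM in the c-Kit-high and 0.0478 and 0.159 RPKM in the Rag2-null controls, so the pre-pro-B libraries were above all 6 pro-B libraries.

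**Figure D4:**
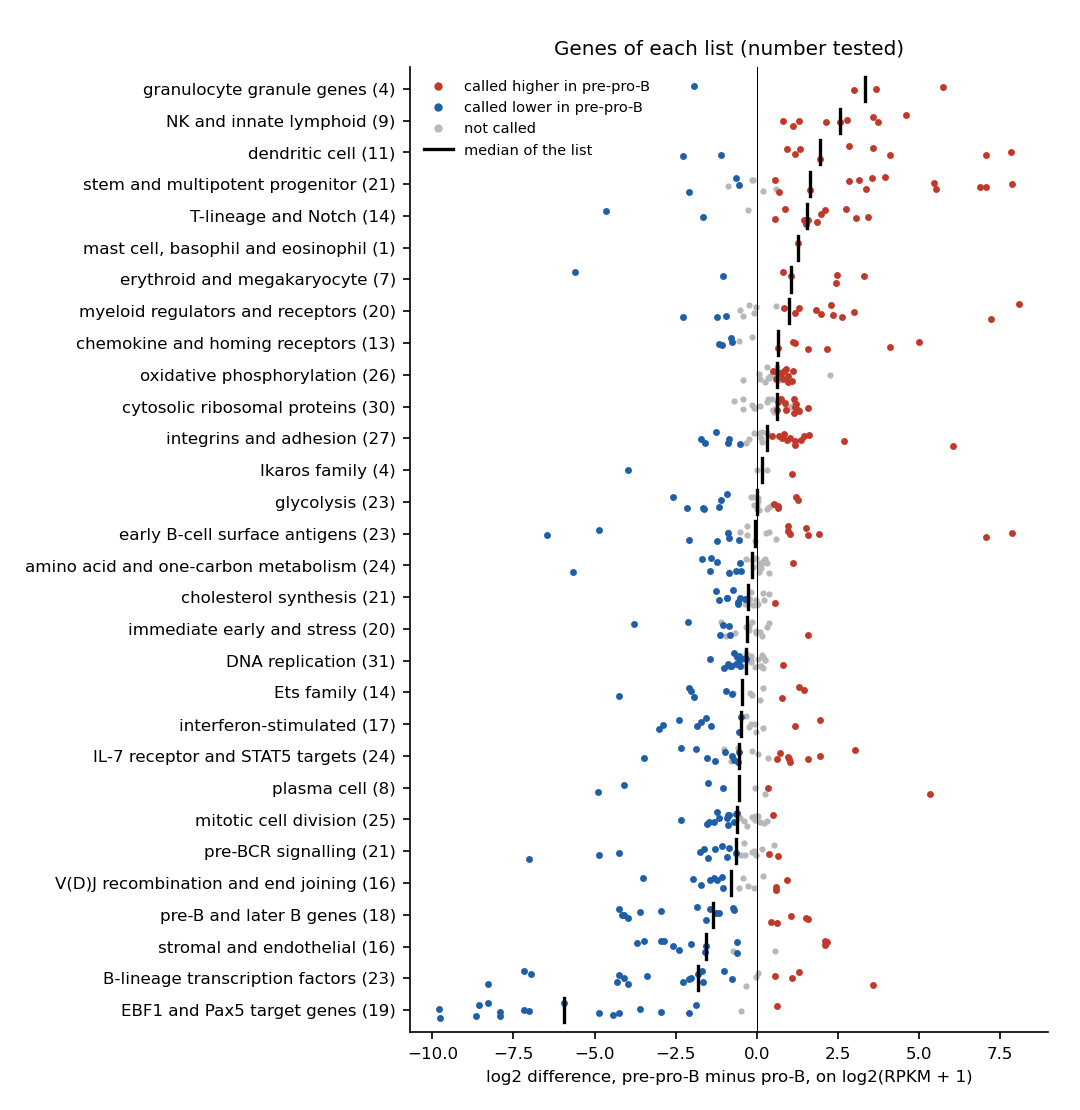
Log2 difference (pre-pro-B minus pro-B) of every tested gene in the 30 lists, with the median of each list. The EBF1 and Pax5 target genes have the lowest median, -5.95; members that passed the filter through 1 group alone are drawn with the rest.

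Adhesion and homing genes changed in both directions. Among 27 integrin and adhesion genes 13 were higher and 6 lower, beside 24.1% and 25.4% of all genes. Through the pre-pro-B libraries alone 3 had passed the filter, and 1 through the pro-B libraries alone. Itgb7, the β7 integrin chain of gut homing, had 54.9, 79.9 and 95.4 RPKM as the lowest, median and highest pre-pro-B value, against 0.129 and 0.254 RPKM in pro-B libraries (log2 difference 6.05 ± 0.19, limma adjusted p = 6.58e-07). The groups were far apart, while its partner chain Itga4 was not called (17.8 ± 6.74 against 15.2 ± 1.42 RPKM). Zyx, a focal adhesion protein, averaged 112 ± 9.91 against 16.6 ± 2.02 RPKM, and Cd47, the signal that restrains phagocytes, 115 ± 9.37 against 36.8 ± 3.9 RPKM. Ptk2, the focal adhesion kinase, was lower (0.629 ± 0.237 against 4.29 ± 0.836 RPKM). Of 13 tested chemokine and homing receptors 7 were higher and 4 lower. Here 3 had passed through the pre-pro-B libraries alone and 1 through the pro-B libraries alone. P2ry14, a receptor for UDP-sugars, averaged 35 ± 4.3 against 0.105 ± 0.0812 RPKM, the lipid receptor gene S1pr3 12 ± 1.07 against 1.9 ± 0.125 RPKM and Ccr7 20.9 ± 3.99 against 8.49 ± 0.996 RPKM. Cxcr4, which retains B progenitors in the marrow, was not called (72.5 ± 17.4 against 104 ± 14.8 RPKM). It was called without run 1 or run 4. The number called was 11 of the adhesion genes without pro-B replicate 1 and 7 of the homing receptors without pro-B replicate 2.

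Of 25 mitotic genes 13 were lower and 1 higher, with a median of -0.60, beside 25.4% and 24.1% of all genes. Of 31 DNA replication genes 14 were lower and 1 higher, with a median of -0.32. No gene of either list passed the test for a change beyond 2-fold. Against the Rag2-null controls 0 mitotic genes were higher and 6 lower and 1 replication gene was higher and 7 lower. The shares of all genes there were 18.8% higher and 13.5% lower. Against the c-Kit-high controls 5 mitotic genes were higher and 10 lower and 12 replication genes were higher and 4 lower. The shares of all genes there were 29.7% higher and 33.8% lower. Mki67, the proliferation antigen, had 17.9, 22.1 and 59.3 RPKM as the lowest, median and highest pre-pro-B value, against 137 and 148 RPKM in pro-B libraries (log2 difference -2.34 ± 0.40, limma adjusted p = 0.00264), with no overlap. The Rag2-null libraries, at 10.8 and 14.1 RPKM, lay below every pre-pro-B library. Top2a, the topoisomerase of chromosome separation, averaged 88.8 ± 31.4 against 213 ± 19.6 RPKM, and Pola1, a DNA polymerase subunit, 7.98 ± 1.97 against 22.8 ± 0.309 RPKM. The helicase genes Mcm2, Mcm3, Mcm5, Mcm6 and Mcm7 were not called. Without pro-B replicate 1 or 2 only 3 and 7 mitotic and 7 and 6 replication genes were called, and Top2a lost its call (limma adjusted p = 0.0809 and 0.0529).

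Histone genes of DNA replication, whose transcripts end in a stem-loop in place of a poly(A) tail, went the other way, a group chosen after its values were seen. Of 50 tested, 46 were higher and 0 lower in pre-pro-B cells, beside 24.1% and 25.4% of all genes. Beyond 2-fold 20 were higher, beside 3.93% of all genes. Their median log2 difference was 1.67, and it was 1.64 and 1.65 without pro-B replicate 1 and 2. The libraries were made from polyadenylated RNA, so these levels depend on how much of such transcripts each library kept. That share was not tested. H4c2, which encodes histone H4, had 15, 27.3 and 39.7 RPKM as the lowest, median and highest pre-pro-B value, against 2.49 and 2.5 RPKM in pro-B libraries (log2 difference 2.95 ± 0.30, limma adjusted p = 0.00019). H2bc11, a histone H2B gene, averaged 46.8 ± 6.39 against 7.47 ± 2.24 RPKM, and H2ac8, a histone H2A gene, 16.5 ± 7.65 against 1.35 ± 0.343 RPKM. The groups overlapped for none of the 3 genes. Against the Rag2-null controls 25 of the histone genes were higher and 0 lower, beside 18.8% and 13.5% of all genes. Against the c-Kit-high controls 3 were higher and 4 lower, beside 29.7% and 33.8% of all genes. Near-identical histone genes can share reads, so their separate levels are uncertain.

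Part of the genes of respiration and of the ribosome were higher than in the pro-B controls, none were called higher against the Rag2-null controls, and most were higher against the c-Kit-high controls. Of 26 oxidative phosphorylation genes 12 were higher and 0 lower (median 0.63). Of 30 cytosolic ribosomal protein genes 12 were higher and 0 lower (median 0.63). The shares of all genes were 24.1% higher and 25.4% lower. Neither list had a gene that passed the test for a change beyond 2-fold. Against the Rag2-null controls 32.3% of 10776 genes were called, 18.8% higher and 13.5% lower. There 0 and 0 of the respiration genes, and 0 and 1 of the ribosomal genes, were higher and lower. Against the c-Kit-high controls 22 respiration and 24 ribosomal genes were higher, and 0 and 0 lower, beside 29.7% and 33.8% of all genes. Ndufa1, a complex I subunit, averaged 225 ± 56.1 RPKM in pre-pro-B cells, against 100.3 ± 3.69 RPKM in pro-B cells and 307 RPKM in Rag2-null cells. Rplp2, a stalk protein of the large subunit, averaged 2511 ± 674 RPKM in pre-pro-B cells, against 813 ± 39.7 RPKM in pro-B cells and 2829 RPKM in Rag2-null cells. Ribosomal protein genes have many near-identical copies that can share reads, so their levels are uncertain. These counts rest on few libraries: without run 4 of the pre-pro-B cells 23 respiration and 20 ribosomal genes were called, without run 1 or 2 the ribosomal count was 6 and 7, and without pro-B replicate 1 or 2 the counts were 1 and 0 respiration genes and 4 and 2 ribosomal genes. Ndufa1 lost its call without pro-B replicate 1 or 2 (limma adjusted p = 0.0705 and 0.0565).

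Of 23 glycolysis genes 7 were lower and 5 higher, beside 25.4% and 24.1% of all genes, whereas 5 were lower and 13 higher against the c-Kit-high controls. The lactate exporter gene Slc16a3 averaged 1.68 ± 0.19 against 15.1 ± 3.14 RPKM, and the phosphofructokinase genes Pfkp and Pfkm went opposite ways, at 8.37 ± 1.67 and 30.8 ± 3.07 RPKM against 27.1 ± 1.02 and 12 ± 0.798 RPKM. Of 24 amino acid and one-carbon genes 9 were lower and 1 higher, whereas 4 were lower and 17 higher against the c-Kit-high controls. Gldc, the glycine decarboxylase, had 0.216, 0.323 and 0.528 RPKM as the lowest, median and highest pre-pro-B value, against 61.9 and 71.5 RPKM in pro-B libraries (log2 difference -5.65 ± 0.15, limma adjusted p = 2.92e-07). It was at 0 and 0.0366 RPKM in the c-Kit-high and 149.7 and 167 RPKM in the Rag2-null controls. Of 21 cholesterol synthesis genes 9 were lower and 1 higher, whereas 20 were higher and 0 lower against the c-Kit-high controls. Against those controls 29.7% of all genes were higher and 33.8% lower. Cyp51, a demethylase of this pathway, averaged 29 RPKM in pre-pro-B, 10.7 in c-Kit-high pro-B and 69.9 in pro-B cells. The numbers called without pro-B replicate 1 or 2 were 7 and 7 glycolysis, 5 and 4 amino acid and 4 and 6 cholesterol genes, and the last was 6 without run 1 or run 2.

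Of 17 tested interferon-stimulated genes 9 were lower and 2 higher, beside 25.4% and 24.1% of all genes. Their median was -0.48, and 4 had passed the filter through the pro-B libraries alone. Gbp3 and Gbp2, which encode guanylate-binding proteins, averaged 0.743 ± 0.155 and 0.0885 ± 0.0608 RPKM in pre-pro-B cells, against 13 ± 0.956 and 7.04 ± 1.37 RPKM in pro-B cells, and the genes that were higher were Irf7 and Bst2. Of 20 tested immediate early and stress genes 6 were lower and 1 higher, beside 25.4% and 24.1% of all genes. Jun, an AP-1 subunit, had 2.04, 3.5 and 5.11 RPKM as the lowest, median and highest pre-pro-B value, against 51.8 and 64.3 RPKM in pro-B libraries (log2 difference -3.78 ± 0.23, limma adjusted p = 1.3e-05). Fos and Egr1 were not called. Without pro-B replicate 1 or 2 the number of immediate early and stress genes called was 4 and 3, and Irf7 lost its call without replicate 2 (limma adjusted p = 0.0879). Against the c-Kit-high controls Irf7 was lower, by a log2 difference of -2.34 (limma adjusted p = 0.000128).

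Stromal genes were higher in the pro-B libraries. Of 16 tested stromal and endothelial genes 11 were lower and 3 higher in pre-pro-B cells, beside 25.4% and 24.1% of all genes. Their median was -1.57, and 3 had passed the filter through the pro-B libraries alone. Fn1 (fibronectin) averaged 4.85 ± 0.712 against 73.3 ± 20.7 RPKM, the chemokine gene Cxcl12 2.62 ± 0.72 against 38.3 ± 9.97 RPKM and the collagen gene Col1a1 3.14 ± 0.933 against 20.5 ± 6.84 RPKM. The 7 stromal markers (Col1a1, Col1a2, Col3a1, Sparc, Postn, Dcn and Pdgfra) summed to 4.54 to 14.9 RPKM in pre-pro-B libraries and 52.2 and 83.4 RPKM in pro-B libraries, with Dcn at 0 in all 10. The sum was 6.9 and 13 RPKM in the Rag2-null controls. Against them 4 of 13 tested genes of the list were higher and 1 lower in pre-pro-B cells, beside 18.8% and 13.5% of all genes. The part of stromal cells in the pro-B values was not tested. Igfbp4, an IGF-binding protein, was higher, at 1028 ± 40.01 against 239 ± 16.4 RPKM.

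Some of the widest gaps belonged to genes best known from other tissues. Tnni1, the slow skeletal muscle troponin I, had 255, 412 and 514 RPKM as the lowest, median and highest pre-pro-B value, against 0 and 0.087 RPKM in pro-B libraries (log2 difference 8.53 ± 0.26, limma adjusted p = 6.2e-07). It was at 0 and 1.73 RPKM in the c-Kit-high and 0.0994 and 0.119 RPKM in the Rag2-null controls, far below every pre-pro-B library. Nrgn, a calmodulin-binding protein of neurons, averaged 414 ± 121 against 5.87 ± 4.06 RPKM. Cplx2, a complexin of vesicle release, averaged 0.0453 ± 0.029 against 417 ± 17.3 RPKM, and Pde2a, a cyclic nucleotide phosphodiesterase, 0.162 ± 0.0168 against 405 ± 8.67 RPKM.

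Among themselves the pre-pro-B libraries differed more between runs than within them. The median range of a gene over the 4 run means was 0.481 on the log2 scale, against a median difference of 0.0858 between both libraries of a run. For comparison, the median absolute difference was 0.526 between pre-pro-B and pro-B cells and 0.115 between the 2 pro-B libraries. A range of 4 values is wider than a difference of 2 at the same spread, so the 0.481 is not on the same measure as the others. Between Ren713 and empty vector limma called 0 genes (0%), with 62 at an unadjusted p under 0.05. With the run as a replicate block it called 6 genes (0.0546%), namely Baz2a, Fmr1, Hprt, Pcyox1l, Sec11c and Snord88a, with 1507 at an unadjusted p under 0.05.

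A few listed genes varied widely between runs. Egr1, a growth-response factor, had 3.79 and 7.28 RPKM in run 1, 25.6 and 63 in run 2, 9.53 and 24.2 in run 3 and 102 and 105 in run 4, and both pro-B values (23.4 and 32.6 RPKM) lay inside this range. Kit was highest in run 4 (57.9 and 108 RPKM) and Hoxa5 was too (24.6 and 26.1 RPKM). Prtn3 was lowest there (3.96 and 6.0 RPKM), as was Ly6d (39.9 and 90.9 RPKM). Rps20, a ribosomal protein gene, stood out in run 3 (3324 and 3344 RPKM), against 734 and 928 RPKM in run 1. Run 4 thus differed from the others in genes that also separate pre-pro-B from pro-B cells, such as Hoxa5 and Ly6d, and each of its libraries was still above both pro-B libraries for these genes.

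**Figure D5:**
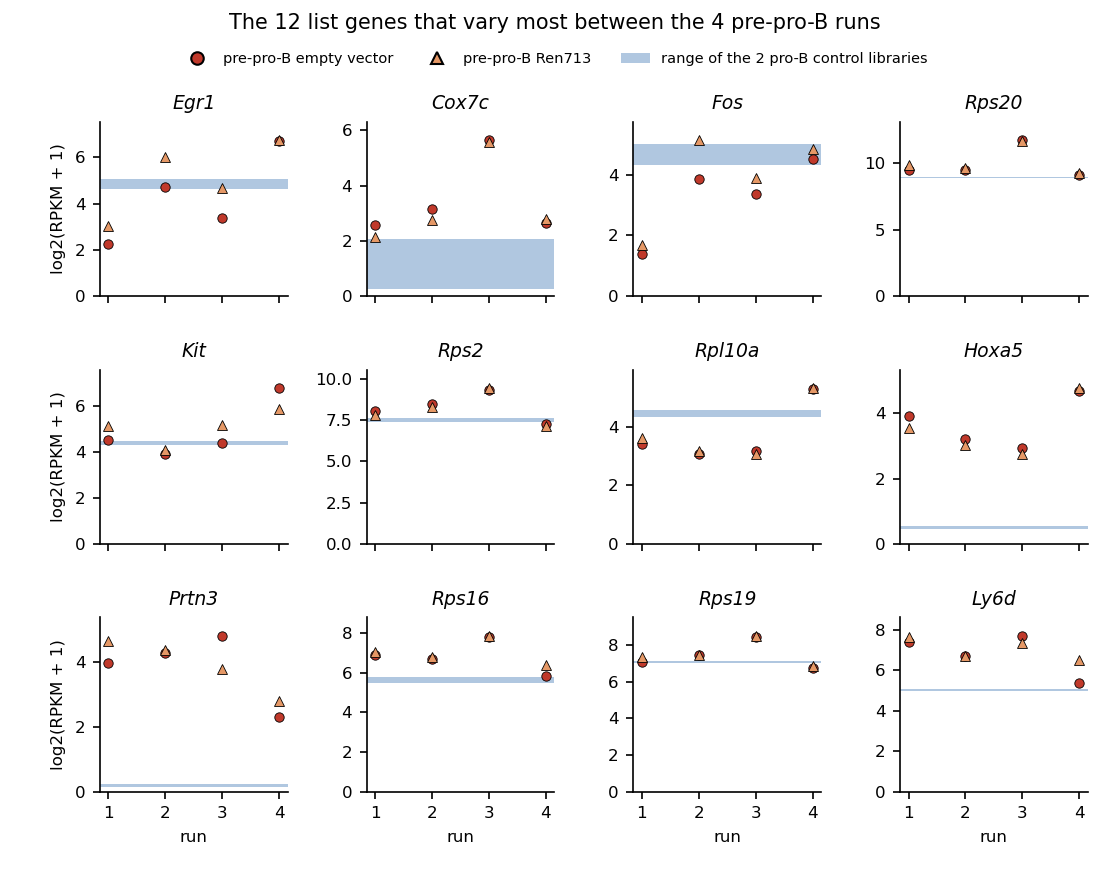
Level, as log2(RPKM + 1), of the 12 listed genes with the widest range between the 4 pre-pro-B runs, for the empty-vector and Ren713 library of each run, with a band that spans the 2 pro-B libraries; runs have no order. The pro-B band lies inside the pre-pro-B range for Egr1 and Kit and below it for Hoxa5, Prtn3 and Ly6d.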

How the data were processed

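Polyadenylated RNA was sequenced as strand-specific single-end libraries, per the labels' protocols. The deposited values are RPKM, computed by the authors for 21025 gene models, and no counts were used. The submitters' processing notes name TopHat 1.4.1, HTSeq 0.5.3, DESeq 1.8.3 and mm9, with no roles. Gene names were matched by RefSeq accession for 20661 models and by symbol for 191, and 173 were unmatched; 110 share a symbol with another model. RPKM values of low genes fell on whole-read steps (at least 93.5% within 0.1 read per library used for a depth), which gave the implied depths.

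Genes that reached 1 RPKM in 2 or more of the 10 libraries were tested on log2(RPKM + 1) with limma 3.58.1 (R 4.3.3; trend, robust, two-sided, Benjamini-Hochberg adjustment over 10996 genes), checked on simulated data. The deviations of same-run libraries correlated at 0.715 to 0.921 in the 4 pairs (median of other pairs -0.243), and the run is read from consecutive library numbers and the series text. No pair of libraries was identical. Tables and plots used Python 3.11.15, pandas 2.3.3, numpy 2.4.6 and matplotlib 3.10.9.

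The comparison, the 30 gene lists and the motifs were chosen with earlier results of these data known. 1 gene of the lists and of the pro-B markers is not reported here and was left out of their counts, medians and sums. Genes are named by rule: Ebf1 and Ikzf1, the 10 largest called differences in each direction among genes whose higher group averaged 10 RPKM or more and whose libraries did not overlap, and up to 5 called genes per list that averaged 3 RPKM or more in the higher group. Other list genes are named for their known roles, and the histone, Y-linked and Xist genes as checks, chosen after their values were seen. Alternatives were another scaling, pseudocount, filter, variance model, replicate unit, control construct or pro-B group, and each replicate left out. Chromatin immunoprecipitation, knock-down, Ikzf1-deleted and pre-B libraries were not compared here.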

Additional observations from a re-analysis of the deposited data

Results flagged for a closer look

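Among the 180 genes followed, 13 had a pre-pro-B run far from the other 3 runs by Dixon's ratio (the gap to the nearest run over the whole range, above its 95% critical value for 4 values); chance gives about 1 in 20 groups. Run 4 was the run in question for 6 of them. In run 4 the mean was highest for Mki67 (57.4 RPKM, ratio 0.854), Cbl (16.4 RPKM, ratio 0.858) and Xist (33.7 RPKM against 1.29 to 4.78 RPKM in the others, ratio 0.892), and lowest for Mpo (24.3 RPKM, ratio 0.913), Prtn3 (4.98 RPKM, ratio 0.952) and Ltb (4.13 RPKM, ratio 0.887). Ebf1 was lowest in run 2, at 21.3 RPKM against 30.1 to 30.5 RPKM in the others (ratio 0.953), and Rps20 highest in run 3, at 3334 RPKM (ratio 0.911). Genes near 0 in all runs made up the rest: Blk (ratio 0.869), Col3a1 (0.87) and Vpreb3 (1.0) were highest in run 1, Pde2a (0.857) was highest in run 2 and Blnk (0.837) lowest in run 2.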

How the results depend on the processing

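The count of 5435 called genes lay between 4306 and 7387 with a run left out, and between 2842 and 3011 with a pro-B replicate left out; then the lone pro-B library is assumed to vary like the other group. It was 3481 against the Rag2-null controls and 1010 in the test beyond 2-fold, and within 1.5 times the value above in the other settings, including 7070 against the c-Kit-high controls and 5665 for the 8 libraries with the run as replicate block. Between Ren713 and empty vector 6 genes were called with the run as replicate block, 1 with no filter on low values and 0 to 1 with a run left out. Among the 180 genes followed, the block ended no other call than that of Ly6d and added only that of Syk. Depth and 2 pro-B libraries limit precision most for low genes.

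Directions changed mainly with the pro-B group, and the cause was not tested. Against the Rag2-null controls the log2 difference was 0.39 for Cbl, 0.26 for Cd74, 0.15 for Col1a1, 2.12 for Egr1, 2.39 for Fos, -0.057 for Il7r, 0.0245 for Lyl1, 0.0314 for Mcm2, -0.0406 for Mcm5, -0.0206 for Mcm7, 1.08 for Mki67, 0.12 for Myb, -0.48 for Ndufa1, -0.21 for Rplp2, -1.52 for Rps20 and 1.76 for Xist. Against the c-Kit-high controls it was -1.96 for Cd72, 0.83 for Cish, 0.58 for Col1a1, 0.85 for Col1a2, 1.29 for Cxcl12, 1.35 for Cyp51, 1.13 for Egr1, -0.38 for Etv6, 0.17 for Fn1, 1.23 for Fos, -0.27 for Ikzf5, -2.91 for Il7r, -2.34 for Irf7, -1.78 for Itga4 and -0.26 for Kit. It was also -0.89 for Lmo2, 2.53 for Lta, 0.72 for Mcm2, 0.71 for Mcm3, 0.71 for Myc, -0.61 for Pik3r1, -2.94 for Rag2, 0.13 for Slc16a3, -0.48 for Sox4, 0.30 for Sparc, -0.33 for Vav1, 0.38 for Xbp1, -0.89 for Xrcc6 and -0.48 for Zbtb7a. With the sign kept, 21 of 174 genes followed lost their call against the Rag2-null controls and 7 gained one. Against the c-Kit-high controls 10 of 176 lost it and 15 gained one. Among those lost against the Rag2-null controls were Btk (-0.49, limma adjusted p = 0.23), Atm (-0.42, 0.279), Bcl2l1 (-0.60, 0.0697), Col1a2 (-0.34, 0.306) and Cd72 (0.12, 0.607). Ccnd2 was among those lost against the c-Kit-high controls (-0.56, limma adjusted p = 0.0874).

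The other changes of sign were of genes that were not called above. Quantile normalization gave -0.11 for Mcm5, -0.0497 for Mcm6, -0.21 for Mcm7, 0.000476 for Shc1 and -0.00217 for Zbtb7a. Median-ratio scaling gave 0.0224 for Inpp5d, 0.0934 for Myb and 0.0727 for Shc1, and Ren713 alone 0.27 for Egr1, -0.000749 for Ikzf5 and 0.0264 for Myb. With a replicate left out the range was -0.83 to 0.52 for Egr1, -0.057 to 0.104 for Ikzf5, -0.0598 to 0.32 for Itga4, -0.12 to 0.093 for Myb, -0.0219 to 0.38 for Rag2, -0.0845 to 0.018 for Shc1 and -0.0296 to 0.117 for Zbtb7a.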
